A study of Mus musculus with 33 samples.

Results

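Unsorted induced osteoblasts (iOB) were compared with the tail-tip fibroblasts of the same study. The members are the 3 iOB libraries and the 3 fibroblast libraries, taken by their sample titles from 33 samples in all. Every gene of the deposited count table with enough counts was tested, 13438 of 17982. The study asked whether mouse fibroblasts can be turned directly into bone-forming cells, and it also profiled calvarial osteoblasts, reporter-sorted cells and DNA methylation. Both groups go back to tail-tip fibroblasts cultured from mice of the Col2.3GFP reporter line, whose green fluorescent protein is driven in cells of the osteoblast lineage by a fragment of a type I collagen promoter. These cells were expanded for 2 passages and stored frozen. The iOB libraries came from such cells after replating on gelatin, transduction with a lentivirus that carried a transcription factor gene, a split and a change to osteogenic medium, and they hold all cells of the culture, reporter-positive or not. The fibroblast libraries came from the tail-tip cells. The labels do not name the delivered factor, the day of harvest, or the strain, age and sex of the mice, and they list no group given virus or medium alone. The design therefore cannot tell the factor, the virus, the medium and the culture period apart. Nothing in the labels says that the 3 libraries of a group came from separate cultures, so p-values measure only the spread between these libraries, which may be technical.

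Osteoblasts are the cells that lay down bone matrix and mineralize it. Runx2 and Sp7 (osterix) are the transcription factors without which they do not form in mice, and Dlx5 is a homeobox factor that acts upstream of both in skeletal cells. Mature osteoblasts take up phosphate, calcium, citrate and amino acids, receive signals of the Wnt, BMP, parathyroid hormone and gp130 cytokine families, and secrete regulators of bone-resorbing cells. Dermal and tail fibroblasts share the collagen-secreting programme but not the mineralizing one.

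The iOB libraries held 5646299 to 8187715 counts and the fibroblast libraries 7634593 to 13367273, and the smaller iOB totals make low values less precise there. The precursor ribosomal RNA Rn45s took 5.08% to 5.48% of the counts in iOB and 2.27% to 10.9% in fibroblasts. Across genes, Pearson's r between libraries was 0.984 to 0.989 within iOB, 0.987 to 0.991 within fibroblasts and 0.869 to 0.884 between the groups. Of the tested genes 22.7% were called higher and 20.6% lower in iOB (3055 and 2765 genes; edgeR's quasi-likelihood test, Benjamini-Hochberg adjusted p below 0.05). The split was uneven among large changes, with 13.8% of genes at least 2-fold higher and 5.39% at least 2-fold lower (1857 and 724 genes). For 63.0% of tested genes the 3 iOB values and the 3 fibroblast values did not overlap.

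The labelled cell types were checked against fixed marker lists. All 11 listed osteoblast markers were higher in iOB, 10 of them at least 2-fold, with a median log2 fold change of 4.63. The list includes the factors Sp7 and Runx2, and if either was delivered by the lentivirus, its counts may include transcripts of the vector. Spp1, the osteopontin gene, was not on the list and fell by 2.21 ± 0.17 log2 units. The summed level of the 11 was 36890, 30980 and 31790 CPM (counts scaled to a common library size) in the iOB libraries, against 18980, 18580 and 17530 CPM in the fibroblast libraries. Most of each sum was the collagen gene Col1a1. It had 212558, 234038 and 165030 counts in iOB, against 200241, 130298 and 209765 counts in fibroblasts. Of 12 fibroblast markers 8 were lower and 2 higher, with sums of 11820, 13290 and 12150 CPM in iOB, against 31030, 35000 and 33630 CPM in fibroblasts. All 17 macrophage markers were also higher in iOB, where they summed to 2376, 3706 and 3852 CPM, against 91.7, 59.5 and 45.8 CPM in fibroblasts, and none of them was at 0 in either group. Each of the 17 was lowest in iOB replicate 1. Of 8 tested adipocyte markers 7 were higher and 1 lower, with sums of 286, 342 and 339 CPM in iOB, against 139, 144 and 130.5 CPM in fibroblasts, with Lep at 0 in both groups. Most of each adipocyte sum was Lpl, with 1682, 2661 and 1883 counts in iOB, against 1244, 815 and 1179 counts in fibroblasts. Only 3 of 8 listed lymphocyte markers, Cd4, Cd79a and Ms4a1, were in the count table, and they summed to less than 1 CPM in every library. The cultures are bulk samples, so more cells of a type and more RNA per cell cannot be told apart in any value that follows.

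**Figure D1:**
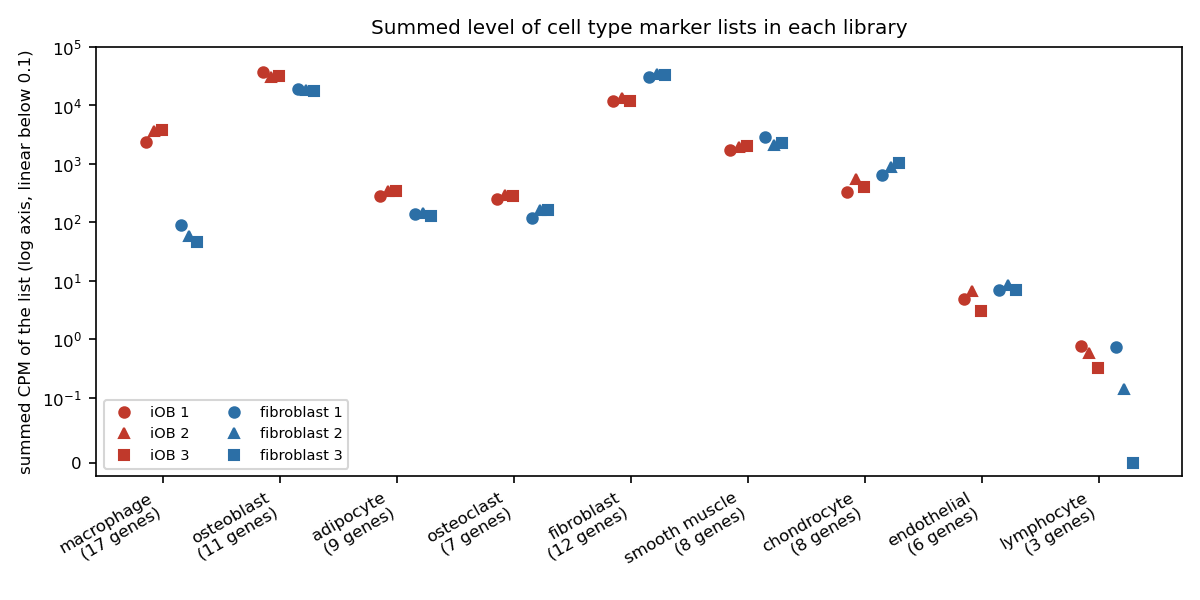
Summed CPM of each cell type marker list (log axis, linear below 0.1 CPM) in each of the 3 iOB and 3 fibroblast libraries, with marker shapes for the replicates. The macrophage sums lie between 2376 and 3852 CPM in iOB, against 45.8 to 91.7 CPM in fibroblasts, and the fibroblast list shows the reverse order, with 11820 to 13290 CPM in iOB and 31030 to 35000 CPM in fibroblasts.

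Genes were then grouped by symbol into transcription factors, receptors, transporters, secreted proteins and metabolic enzymes. Together the 5 classes held 2140 tested genes, of which 38.8% were higher and 17% lower in iOB (831 and 363 genes), against 22.7% and 20.6% of all tested genes. The count of every list that follows is to be read beside these 22.7% and 20.6%. Receptors had the largest share of higher genes among the classes, with 182 of 356 tested (51.1%) higher and 49 lower (13.8%). Secreted proteins followed with 193 higher and 67 lower of 397, and transporters with 190 higher and 55 lower of 452. Transcription factors, with 116 higher and 98 lower of 403, and metabolic enzymes, with 151 higher and 94 lower of 533, lay closer to the shares of all genes. Without the list of innate and scavenger receptors, which macrophages are known to express, 131 of 293 receptor genes (44.7%) were higher and 47 (16%) lower. These 293 still held the macrophage marker Csf1r, a receptor tyrosine kinase gene, so they are not free of genes that macrophages express.

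**Figure D2:**
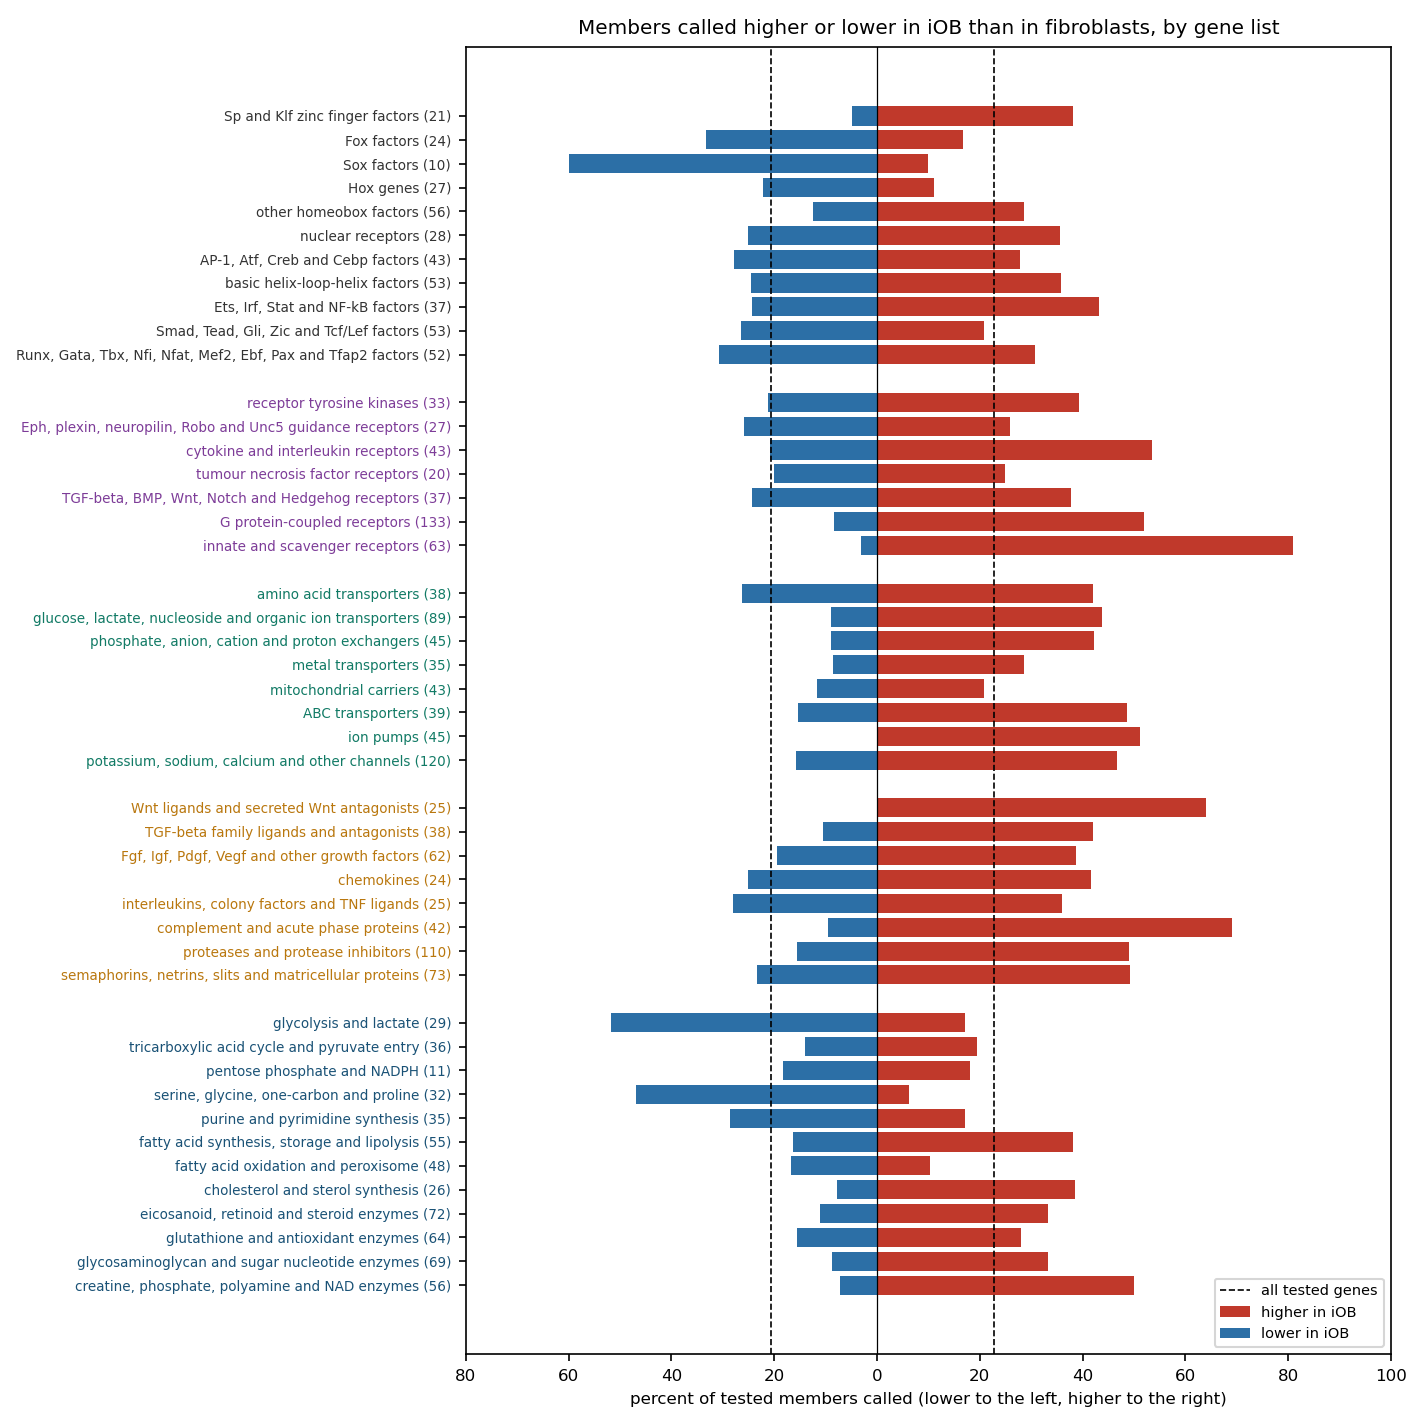
Percent of tested members called higher (bars to the right) or lower (bars to the left) in iOB than in fibroblasts for each gene list, with the number of tested members in brackets and the shares over all tested genes (22.7% higher, 20.6% lower) as dashed lines. Innate and scavenger receptors reach 81.0% higher and Wnt ligands and antagonists 64.0%, while Sox factors (60%) and glycolysis enzymes (51.7%) have the longest bars on the lower side.

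Among called transcription factors with a mean of at least 5 CPM and groups that do not overlap, the osteoblast regulators Dlx5 and Sp7 had the largest rises. Dlx5 stood at 185, 209.9 and 225 CPM in the iOB libraries, against 1.04, 1.13 and 0.664 CPM in the fibroblast libraries (log2 fold change 7.80 ± 0.19 SE, adjusted p = 4.4e-10 by edgeR). Sp7 stood at 722, 518 and 573 CPM in the iOB libraries, against 3.2, 4.25 and 3.07 CPM in the fibroblast libraries, and its log2 fold change was 7.45 ± 0.31 (adjusted p = 3.0e-08 by edgeR). Runx2, already read in fibroblasts, had 433, 407 and 455 CPM in the iOB libraries, against 63.2, 77.3 and 70.1 CPM in the fibroblast libraries (log2 fold change 2.62 ± 0.11, adjusted p = 4.0e-08 by edgeR). Every iOB library also lay above every fibroblast library for Runx2, and 63% of tested genes had groups that did not overlap. Atf4, a stress-response factor that osteoblasts use for amino acid import, had 375, 251 and 255 CPM in the iOB libraries, against 214, 261 and 251 CPM in the fibroblast libraries, with groups that overlapped and no call (log2 fold change 0.28 ± 0.15, adjusted p = 0.15 by edgeR). The counts of any factor delivered by the lentivirus may include transcripts of the vector.

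The homeobox and Wnt-responsive factors moved unevenly. Of 56 tested homeobox factors outside the Hox clusters 16 were higher (28.6%) and 7 lower (12.5%). Of 27 Hox genes 6 were lower (22.2%), near the 20.6% of all tested genes. Another 3 Hox genes were higher (11.1%), or 1 in DESeq2's test and whenever any 1 of the 6 libraries was left out. The Iroquois genes split: Irx3 rose by 1.54 ± 0.14 on the log2 scale and its family member Irx1 fell by 1.54 ± 0.18. Tcf7, a nuclear partner of beta-catenin in Wnt signalling, stood at 36.6, 25.6 and 29.6 CPM in the iOB libraries, against 1.7, 1.98 and 2.41 CPM in the fibroblast libraries and rose by 3.89 ± 0.33 log2 units (adjusted p = 2.4e-06 by edgeR). Of 21 Sp and Klf zinc finger factors 8 were higher and 1 lower, the lower one being Klf3 (log2 fold change -1.02 ± 0.12). Leaving out iOB replicate 2 or fibroblast replicate 3 left 5 higher. The calcium-responsive factor Nfatc2 rose by 4.35 ± 0.34 log2 units, the thyroid hormone receptor gene Thrb by 2.10 ± 0.20, the oxysterol receptor gene Nr1h3 by 1.87 ± 0.21 and the leucine zipper factor genes Creb3l3 and Hlf by 4.01 ± 0.46 and 2.82 ± 0.45.

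Sox factors moved the other way. Of 10 tested, Sox4, Sox5, Sox6, Sox9, Sox11 and Sox12 were lower, and Sox13 was higher with a call (log2 fold change 0.81 ± 0.28, adjusted p = 0.035 by edgeR) that was lost in DESeq2's test and when iOB replicate 1 or 3 or fibroblast replicate 2 or 3 was left out (adjusted p 0.014 to 0.10 over all alternatives). Sox9, the master factor of cartilage, stood at 6.35, 12.3 and 7.36 CPM in the iOB libraries, against 38.4, 37.2 and 51.6 CPM in the fibroblast libraries (log2 fold change -2.27 ± 0.23, adjusted p = 9.0e-06 by edgeR). Cartilage collagens outside the 5 classes lay lower too. Col2a1, the type II collagen of cartilage, stood at 53.2, 66.2 and 44.3 CPM in the iOB libraries, against 512, 671 and 850.1 CPM in the fibroblast libraries (log2 fold change -3.63 ± 0.31), and Col10a1, the collagen of hypertrophic cartilage, fell by 3.09 ± 0.36 (log2 fold change -3.94 without iOB replicate 2). Of 7 tested chondrocyte markers, however, 3 were higher and 3 lower. Sim2, a basic helix-loop-helix repressor, had 3.63, 9.75 and 4.42 CPM in the iOB libraries, against 62.7, 52.7 and 43.1 CPM in the fibroblast libraries and fell by 3.10 ± 0.29 (log2 fold change -3.72 without iOB replicate 2). The cell cycle factor genes E2f7 and Foxm1 had log2 fold changes of -2.35 ± 0.27 and -1.81 ± 0.23, the mesenchymal repressor gene Snai1 -1.90 ± 0.14 and the Hippo pathway factor gene Tead2 -1.74 ± 0.15. Ets1 and Runx1, both known from blood cells and other lineages, were lower at log2 fold changes of -1.45 ± 0.13 and -1.30 ± 0.12. Fox factors as a list had 8 of 24 lower and 4 higher, with Foxo1 among the higher ones at a log2 difference of 0.83 ± 0.17.

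Genes of blood lineage factors were called in both directions, Irf8, Spi1, Ikzf1 and Fli1 higher and Ets1 and Runx1, described with the lower factors, lower. Irf8, which macrophages need for their development, stood at 9.23, 15.8 and 13.7 CPM in the iOB libraries, against 0.283, 0.283 and 0.249 CPM in the fibroblast libraries (log2 fold change 5.52 ± 0.56, adjusted p = 1.1e-05 by edgeR). Spi1 (PU.1) had 11.8, 20.9 and 22.7 CPM in the iOB libraries, against 1.04, 0.991 and 0.249 CPM in the fibroblast libraries and rose by 4.67 ± 0.47 log2 units, and Ikzf1 (Ikaros) rose by 4.61 ± 0.46. All 3 were lowest in iOB replicate 1, the library with the lowest macrophage sum. The same library was lowest for 1122 of the 3055 higher genes of all kinds. Fli1, an Ets factor of blood and endothelial cells, rose by 2.45 ± 0.21 log2 units with 17.8, 17.5 and 19.5 CPM in the iOB libraries, so that its lowest value fell in replicate 2. Of 37 Ets, Irf, Stat and NF-kB factors 16 were higher and 9 lower. The part of macrophage RNA in these values was not tested.

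The hypoxia-inducible factors changed in opposite directions. Hif1a, the oxygen-regulated subunit found in most cells, stood at 195, 218 and 182 CPM in the iOB libraries, against 689, 623 and 636 CPM in the fibroblast libraries (log2 fold change -1.71 ± 0.13, adjusted p = 1.4e-06 by edgeR). Epas1, which encodes the related subunit HIF-2 alpha, stood at 70, 59.4 and 57.4 CPM in the iOB libraries, against 27, 14.6 and 12.3 CPM in the fibroblast libraries (log2 fold change 1.79 ± 0.24, adjusted p = 9.3e-05 by edgeR). The groups did not overlap for either gene, as for 63% of tested genes. Bhlhe41, a clock-linked repressor of the same basic helix-loop-helix list, rose by 1.80 ± 0.25 log2 units. The list as a whole had 19 of 53 tested members higher and 13 lower. Among stress factors of the AP-1, Atf, Creb and Cebp list, 12 of 43 were higher and 12 lower, and Atf5, a factor of the amino acid response, fell by 1.47 ± 0.22 log2 units. The 12 lower became 6 to 7 without iOB replicate 3 or fibroblast replicate 1 or 2.

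Cytokine receptor genes around gp130 moved in both directions. Lifr, the receptor subunit for leukaemia inhibitory factor, stood at 1275, 774 and 882 CPM in the iOB libraries, against 83.3, 85 and 61.1 CPM in the fibroblast libraries (log2 fold change 3.68 ± 0.20, adjusted p = 1.1e-07 by edgeR). Il6st, which encodes the gp130 subunit that Lifr and the interleukin 6 receptor signal through, stood at 562, 883 and 735 CPM in the iOB libraries, against 2322, 2266 and 2029 CPM in the fibroblast libraries (log2 fold change -1.60 ± 0.15, adjusted p = 4.3e-06 by edgeR). Lepr, the leptin receptor gene and a marker of bone marrow stromal cells, stood at 69.6, 38.6 and 46.1 CPM in the iOB libraries, against 0.565, 0.85 and 0.249 CPM in the fibroblast libraries and rose by 6.62 ± 0.45 log2 units (adjusted p = 5.7e-07 by edgeR). Lifr and Lepr were each highest in iOB replicate 1, as were 1322 of the 3055 higher genes of all kinds. The part of macrophage RNA in these values was not tested. Of 43 cytokine and interleukin receptors 23 were higher and 9 lower. Il1rl1, the receptor gene for interleukin 33, had 28, 48.4 and 37.5 CPM in the iOB libraries, against 233, 212 and 286 CPM in the fibroblast libraries and fell by 2.68 ± 0.25 log2 units (adjusted p = 5.8e-06 by edgeR), while the gene of its ligand, Il33, was called higher, with 11.5, 10.7 and 11.5 CPM in the iOB libraries, against 2.64, 2.41 and 1.41 CPM in the fibroblast libraries. Il18rap, a subunit gene of the interleukin 18 receptor, fell by 2.27 ± 0.35 log2 units.

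Receptors of the TGF-beta, BMP, Wnt, Notch and Hedgehog families moved both ways, 14 of 37 higher and 9 lower. Lrp4, a sclerostin-binding coreceptor of osteoblasts, stood at 343, 242 and 272 CPM in the iOB libraries, against 20.2, 26.9 and 28.8 CPM in the fibroblast libraries (log2 fold change 3.50 ± 0.18, adjusted p = 7.5e-08 by edgeR). The frizzled gene Fzd5 rose by 1.82 ± 0.15 log2 units. Lgr4, an R-spondin receptor that is also known to bind RANKL, stood at 54, 61.1 and 52 CPM in the iOB libraries, against 213, 243 and 233 CPM in the fibroblast libraries (log2 fold change -2.04 ± 0.14, adjusted p = 5.4e-07 by edgeR). Bmpr1b, a type I BMP receptor gene of cartilage condensations, fell by 2.68 ± 0.30 log2 units, and the Hedgehog coreceptor gene Cdon fell by 1.49 ± 0.16. Tnfrsf19 (Troy), a tumour necrosis factor family receptor of stromal cells, stood at 118, 85.1 and 98.3 CPM in the iOB libraries, against 2.73, 3.26 and 1.58 CPM in the fibroblast libraries and rose by 5.36 ± 0.33 log2 units (adjusted p = 2.9e-07 by edgeR). Its family as a list had 5 of 20 higher and 4 lower, or 2 lower without iOB replicate 2 or fibroblast replicate 1 or 3.

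Among G protein-coupled receptors 69 of 133 were higher (51.9%) and 11 lower. Of the 69 higher genes 35 were lowest in iOB replicate 1, against 1122 of the 3055 higher genes of all kinds. The macrophage sums were lowest in that library too, and the part of macrophage RNA in this list was not tested. The adhesion receptor gene Gpr116 stood at 138, 94.6 and 105 CPM in the iOB libraries, against 0.659, 1.56 and 0.498 CPM in the fibroblast libraries (log2 fold change 7.08 ± 0.33, adjusted p = 4.8e-08 by edgeR). Ackr4, a decoy receptor gene that removes chemokines, rose by 4.52 ± 0.26 log2 units. The vasopressin receptor gene Avpr1a fell by 1.32 ± 0.20 log2 units and the lysophosphatidic acid receptor gene Lpar1 fell by 0.55 ± 0.10. Leaving out iOB replicate 1 or fibroblast replicate 2 lowered the 11 lower genes to 7 and 6. Of 33 receptor tyrosine kinases 13 were higher and 7 lower, and the TAM receptors, which bind dying cells, divided: Mertk had 31, 40.4 and 36.3 CPM in the iOB libraries, against 1.7, 1.42 and 1.41 CPM in the fibroblast libraries and rose by 4.56 ± 0.23 log2 units, whereas Axl had 202, 246 and 232 CPM in the iOB libraries, against 419.8, 368 and 450.1 CPM in the fibroblast libraries and fell by 0.86 ± 0.11. The guidance receptors had 7 of 27 higher and 7 lower (25.9% each, or 4 lower without iOB replicate 3 or fibroblast replicate 1), near the 22.7% and 20.6% of all tested genes. Among them Nrp2 was up by 1.07 ± 0.12 and Unc5c down, at a log2 fold change of -1.12 ± 0.13.

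Innate and scavenger receptors had 51 of 63 members higher (81.0%) and 2 lower, with a median log2 fold change of 3.93 against -0.04 over all tested genes. Clec4n, a myeloid lectin gene, had 17.5, 24.7 and 24.7 CPM in the iOB libraries and 0 counts in all 3 fibroblast libraries, at least 223-fold higher against a floor of 3 counts over the group (or 143-fold when fibroblast replicate 1 was left out, and 132-fold when fibroblast replicate 3 was). Marco, a macrophage scavenger receptor gene, had 58.2, 109.5 and 107 CPM in the iOB libraries, against 0.0942, 0 and 0.166 CPM in the fibroblast libraries (log2 fold change 9.65 ± 0.44, or 10.38 without fibroblast replicate 3). Ccrl2, a chemerin-binding receptor gene, had 59.3, 86.8 and 71.2 CPM in the iOB libraries, against 0, 0 and 0.166 CPM in the fibroblast libraries, with a log2 fold change of 9.81 ± 1.61 that was 12.35 without fibroblast replicate 3 and 10.45 when the fit blocked on the replicate number. The inhibitory receptor gene Lilrb4 rose by 6.29 ± 0.30 log2 units. Outside this list, the macrophage growth factor receptor gene Csf1r, a receptor tyrosine kinase gene and itself a listed macrophage marker, rose by 4.66 ± 0.32. The sialic acid receptor gene Siglec1, outside the 5 classes, rose by 7.84 ± 0.70 log2 units (8.57 without fibroblast replicate 1). The lower pair was Clec2d (log2 fold change -1.16 ± 0.21) and Scarb1 (-0.39 ± 0.14), whose call was lost in 10 of the 13 alternatives (adjusted p 0.013 to 0.24). Of the 51 higher genes 40 were lowest in iOB replicate 1, against 1122 of the 3055 higher genes of all kinds. The macrophage sums were also lowest in that library, and their part in this list was not tested.

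**Figure D3:**
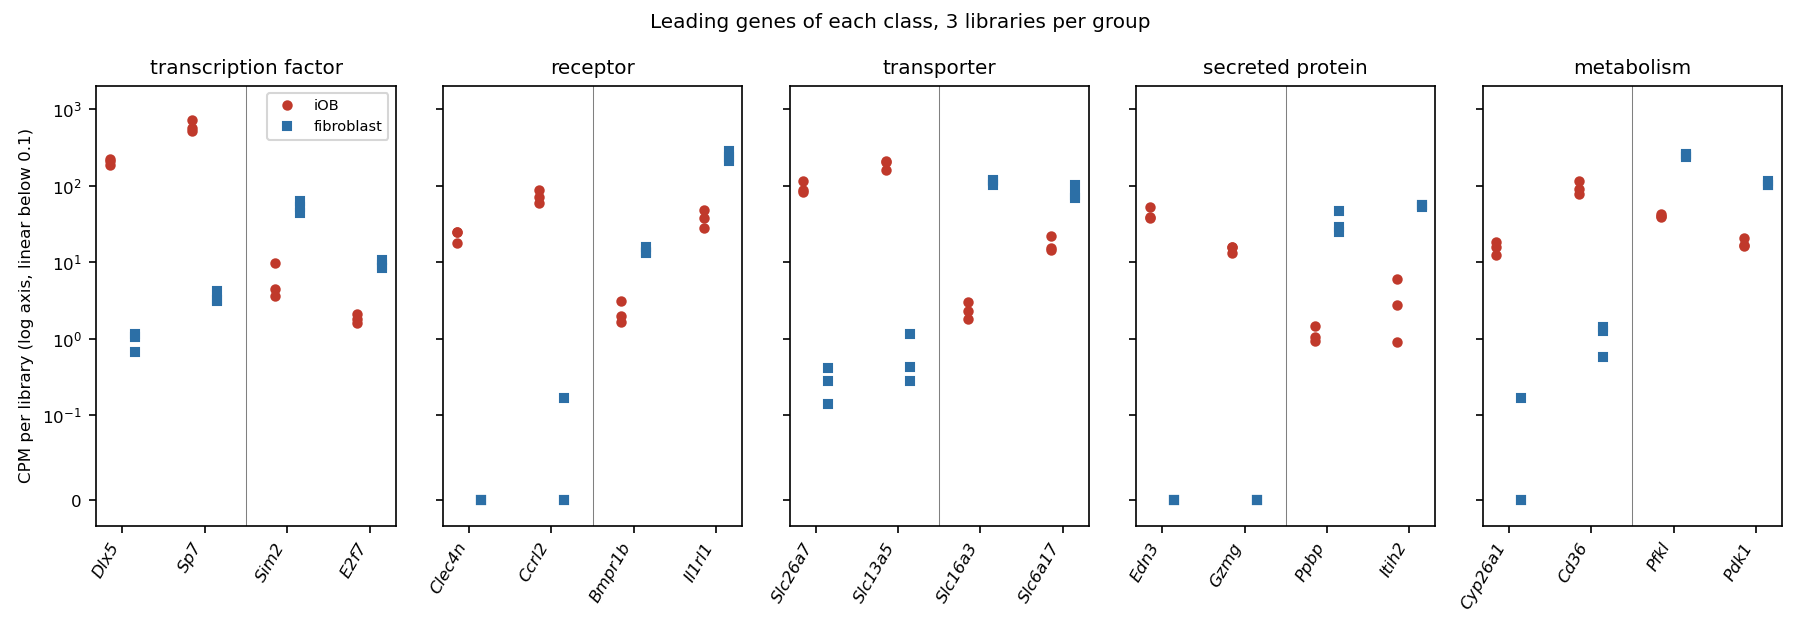
CPM in each of the 3 iOB libraries (circles) and 3 fibroblast libraries (squares) for the 2 most raised and the 2 most lowered genes of each class, on a log axis that is linear below 0.1 CPM. The genes were chosen among those whose groups do not overlap, and Clec4n, Edn3 and Gzmg have 0 CPM in every fibroblast library.

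Transporters were higher more often than lower in most lists. Slc13a5, the plasma membrane citrate carrier gene, stood at 209.9, 162 and 204 CPM in the iOB libraries, against 0.283, 0.425 and 1.16 CPM in the fibroblast libraries (log2 fold change 8.14 ± 0.36, or 9.11 without fibroblast replicate 3, adjusted p = 4.4e-08 by edgeR). Slc26a7, a chloride and bicarbonate exchanger gene, stood at 113, 83.4 and 86.9 CPM in the iOB libraries, against 0.283, 0.142 and 0.415 CPM in the fibroblast libraries (log2 fold change 8.23 ± 0.24, adjusted p = 2.9e-09 by edgeR). Both genes lay near or under 1 CPM in the fibroblast libraries. The sodium-calcium exchanger gene Slc8a3 rose by 3.99 ± 0.33 log2 units, and the vitamin C transporter gene Slc23a2 had 162, 143 and 147 CPM in the iOB libraries, against 56.6, 58.1 and 52 CPM in the fibroblast libraries, a rise of 1.44 ± 0.10. Ascorbate is a cofactor of collagen hydroxylation.

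Ion pumps as a list had 23 of 45 members higher and 0 lower with edgeR. At an unadjusted p below 0.05 edgeR had 1 pump lower, DESeq2 called 0 lower, and 1 was lower with edgeR without the filter on low counts, without iOB replicate 1 or without fibroblast replicate 1. The higher ones included the vacuolar proton pump gene Atp6v0e2 (2.79 ± 0.19) and the proton-potassium pump gene Atp12a, which had 29.5, 45.8 and 49.1 CPM in the iOB libraries, against 5.75, 6.94 and 4.23 CPM in the fibroblast libraries and rose by 2.90 ± 0.23 log2 units. Of 120 channels 56 were higher and 19 lower. The potassium channel genes Kcnk1 and Kcns1 rose by 5.34 ± 0.30 log2 units and 3.42 ± 0.21, while Kcnj15 fell by 2.12 ± 0.18. Phosphate, anion, cation and proton exchangers had 19 of 45 higher and 4 lower, and ABC transporters 19 of 39 higher and 6 lower, or 2 to 3 lower in 6 of the 13 alternatives (without iOB replicate 2 or 3, without fibroblast replicate 2 or 3, without the filter on low counts, and in the fit that blocked on the replicate number). Among metal transporters, 10 of 35 were higher and 3 lower: Tfr2, a transferrin receptor gene of iron sensing, rose by 3.95 ± 0.32 log2 units and the general transferrin receptor gene Tfrc fell by 0.74 ± 0.17. Slc11a1, an iron transporter gene of macrophage phagosomes, rose by 6.51 ± 0.44 log2 units.

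Amino acid transporters split, 16 of 38 higher and 10 lower. The proton-coupled glycine and proline carrier gene Slc36a2 had 6.35, 7.57 and 7.2 CPM in the iOB libraries, against 0.188, 0.142 and 0.166 CPM in the fibroblast libraries (log2 fold change 5.28 ± 0.32, adjusted p = 2.3e-07 by edgeR). The glutamate carrier gene Slc1a1 rose by 3.69 ± 0.26 log2 units, and the neutral amino acid carrier genes Slc1a4 and Slc6a17 were lower, at -0.91 ± 0.12 and -2.27 ± 0.20. The list of glucose, lactate, nucleoside and organic ion transporters held 39 higher genes among 89 tested (43.8%) and 8 lower genes (8.99%). Its lower carrier genes Slc16a3 and Slc2a1 are given with glycolysis.

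Several genes of secreted proteins had no counts in any fibroblast library. Edn3, which encodes the vasoactive peptide endothelin 3, had 51.9, 39.3 and 37.3 CPM in the iOB libraries and 0 counts in every fibroblast library, at least 422-fold higher (or 271-fold when fibroblast replicate 1 was left out, and 251-fold when fibroblast replicate 3 was). Mmp20, the enamel matrix protease gene, had 10.7, 10.3 and 14.2 CPM in iOB and 0 counts in fibroblasts, at least 115-fold higher (or 73.7-fold and 68.1-fold when these replicates were left out in the same way). Gzmg, a granzyme gene, had 15.7, 13.2 and 15.9 CPM in iOB and 0 counts in fibroblasts, at least 146-fold higher (or 93.8-fold and 86.8-fold in the same way). None of the 3 genes could be told from 0 in fibroblasts. The granzyme relatives Gzmd and Gzme rose by 6.92 ± 0.27 log2 units and 4.65 ± 0.16. The granzyme genes are close in sequence, so their reads may have been divided between copies by the counting. Granzymes are best known as proteases of cytotoxic lymphocytes. The listed markers Cd3d, Cd3e, Cd8a and Nkg7 are not in the count table, so the presence of such cells was not tested.

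Wnt ligands and secreted Wnt antagonists had 16 of 25 members higher (64.0%) and 0 lower with edgeR, with a median log2 fold change of 1.43 over the tested members. No member was lower at an unadjusted p below 0.05 with edgeR, or with DESeq2, and 1 was lower with edgeR without fibroblast replicate 3. The higher genes were the ligand genes Wnt2b, Wnt4, Wnt6, Wnt7b, Wnt10a, Wnt10b and Wnt11, the agonist genes Rspo1 and Rspo2, and the antagonist genes Dkk1, Dkk2, Dkk3, Notum, Sfrp1, Sfrp4 and Wif1, so ligands and antagonists rose together. Wnt10b, a ligand that favours bone over fat formation, stood at 31.9, 20.4 and 26.7 CPM in the iOB libraries, against 2.45, 1.7 and 2.24 CPM in the fibroblast libraries (log2 fold change 3.59 ± 0.25, adjusted p = 6.4e-07 by edgeR). Notum, a lipase that inactivates Wnt proteins, stood at 22.4, 14.3 and 13.1 CPM in the iOB libraries, against 0.471, 0.283 and 0.083 CPM in the fibroblast libraries (log2 fold change 5.87 ± 0.47, or 6.59 without fibroblast replicate 1). Of the 16 genes 12 were highest in iOB replicate 1, as were 1322 of the 3055 higher genes of all kinds.

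TGF-beta family ligands and antagonists had 16 of 38 higher and 4 lower. Bmp8a, a bone morphogenetic protein gene, stood at 36.4, 24.5 and 28.6 CPM in the iOB libraries, against 0.377, 0.425 and 0.415 CPM in the fibroblast libraries (log2 fold change 6.16 ± 0.28, adjusted p = 4.4e-08 by edgeR), and Gdf10 rose by 2.58 ± 0.14. Ltbp2, a microfibril protein gene, had 900.0, 1284 and 1117 CPM in the iOB libraries, against 3070.3, 2626 and 2634 CPM in the fibroblast libraries and fell by 1.34 ± 0.14 log2 units, and Fstl1 fell by 0.74 ± 0.10. Of 62 other growth factors 24 were higher and 12 lower. Igfbp2, which encodes a binding protein for insulin-like growth factors, stood at 548, 915 and 678 CPM in the iOB libraries, against 44.8, 30.9 and 25.9 CPM in the fibroblast libraries (log2 fold change 4.40 ± 0.24, adjusted p = 1.2e-07 by edgeR). Igfbp7, another gene of that family, fell by 1.60 ± 0.10 log2 units, and Figf, the gene of vascular endothelial growth factor D, fell by 1.41 ± 0.14.

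Complement and acute phase proteins had 29 of 42 members higher (69.0%) and 4 lower (2 without iOB replicate 2 or 3 or fibroblast replicate 2). Of the 29, 20 were lowest in iOB replicate 1, against 1122 of the 3055 higher genes of all kinds. The macrophage sums were lowest there too, but that marker list itself holds the complement genes C1qa, C1qb and C1qc. The part of macrophage RNA was not tested. Apoe stood at 523, 699 and 723 CPM in the iOB libraries, against 3.86, 3.82 and 3.4 CPM in the fibroblast libraries (log2 fold change 7.46 ± 0.41, adjusted p = 1.3e-07 by edgeR). Ptx3, a pattern-recognition protein gene, had 168, 248 and 214 CPM in the iOB libraries, against 1729, 849 and 733 CPM in the fibroblast libraries and fell by 2.39 ± 0.28 log2 units. Itih2, which encodes a hyaluronan-linking protein, fell by 4.01 ± 0.39 (log2 fold change -4.91 without iOB replicate 2), and Serpina3h, one of a cluster of similar inhibitor genes, fell by 3.89 ± 0.72 (-2.96 without fibroblast replicate 1). Chemokines divided, with 10 of 24 higher and 6 lower (3 lower in DESeq2's test). Ccl6, a chemokine gene of myeloid cells, rose by 7.94 ± 0.42 log2 units, and Cxcl14, a chemokine gene of skin stroma, stood at 691, 457 and 468 CPM in the iOB libraries, against 101, 79.2 and 69.9 CPM in the fibroblast libraries and rose by 2.69 ± 0.20. The neutrophil-attracting chemokine genes Ppbp and Cxcl5 were lower: Ppbp had 1.06, 0.917 and 1.47 CPM in the iOB libraries, against 24.6, 28.7 and 46.5 CPM in the fibroblast libraries and fell by 4.88 ± 0.35 log2 units. Cxcl5 had 23, 39.6 and 25.7 CPM in the iOB libraries, against 930.1, 101 and 100.1 CPM in the fibroblast libraries, so fibroblast replicate 1 stood far above the others, and its log2 fold change of -3.67 ± 0.75 became -1.77 without that library and -3.01 when the fit blocked on the replicate number. Mif, a cytokine gene, fell by 2.31 ± 0.14 log2 units, Spp1, the osteopontin gene, fell by 2.21 ± 0.17, and the gp130 ligand gene Osm rose by 5.08 ± 0.78 (5.69 without fibroblast replicate 1).

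Proteases and their inhibitors had 54 of 110 higher and 17 lower, and semaphorins, netrins, slits and matricellular proteins 36 of 73 higher and 17 lower. Omd, the gene of osteomodulin, a keratan sulfate proteoglycan of bone matrix, stood at 273, 261 and 267 CPM in the iOB libraries, against 15.6, 20 and 10.9 CPM in the fibroblast libraries (log2 fold change 4.13 ± 0.22, adjusted p = 1.1e-07 by edgeR). Biglycan, its relative encoded by Bgn, moved oppositely, with 1412, 1966 and 1618 CPM in the iOB libraries, against 5652, 6131 and 5550.1 CPM in the fibroblast libraries and a log2 fold change of -1.79 ± 0.14. Prg4, the lubricin gene of joint and tendon surfaces, had 55.5, 74.8 and 70.7 CPM in the iOB libraries, against 910.3, 469 and 525 CPM in the fibroblast libraries and fell by 3.24 ± 0.35 log2 units. Lox, the collagen crosslinking enzyme gene, had 2352, 3154 and 2661 CPM in the iOB libraries, against 10387, 9442 and 9497 CPM in the fibroblast libraries, and the matrix protease gene Adamts12 fell by 2.56 ± 0.15 log2 units. The guidance ligand gene Sema3b rose by 2.49 ± 0.14 log2 units.

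In metabolism, glycolysis genes were called lower more often than higher. Glycolysis turns glucose into pyruvate and, through lactate dehydrogenase, into lactate, which monocarboxylate transporters carry across the membrane. Of 29 tested members of the glycolysis and lactate list 15 were lower (51.7%) and 5 higher (17.2%), and the summed level of the list was 3231 to 3309 CPM in iOB, against 8004 to 8948 CPM in fibroblasts. The lower genes were Gpi1, Pfkl, Pfkp, Pfkfb3, Aldoa, Tpi1, Gapdh, Pgk1, Pgam1, Eno2, Pkm, Ldha, Pdk1, Pdk3 and Pck2. A member was thus lower at each step from glucose 6-phosphate to lactate, but not every member was. Among the lower genes Eno2 was the only enolase gene, and the lactate dehydrogenase genes Ldhb and Ldhd were higher. Ldha, the main lactate dehydrogenase gene, stood at 191, 200.2 and 188 CPM in the iOB libraries, against 864, 796 and 905 CPM in the fibroblast libraries (log2 fold change -2.15 ± 0.10, adjusted p = 4.4e-08 by edgeR). Pgk1, a kinase gene of the lower pathway, stood at 176, 172 and 186 CPM in the iOB libraries, against 882, 811 and 899 CPM in the fibroblast libraries (log2 fold change -2.28 ± 0.10, adjusted p = 4.0e-08 by edgeR). Pfkl, a phosphofructokinase gene, stood at 42.3, 38.9 and 40.1 CPM in the iOB libraries, against 256, 236 and 248 CPM in the fibroblast libraries (log2 fold change -2.61 ± 0.23, adjusted p = 3.6e-06 by edgeR). The libraries of a group lay within a narrow band for all 3 genes. Their groups did not overlap, as for 63% of tested genes, and Pfkl was named by a rule that required this. Genes such as Gapdh, Pgk1 and Ldha have processed copies in the genome, and how reads shared with them were counted is not given in the sources used here.

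Carrier genes for lactate and glucose were among the lower genes of a list in which most calls were higher. Slc16a3, the lactate exporter gene, stood at 1.81, 2.98 and 2.29 CPM in the iOB libraries, against 118, 101 and 115 CPM in the fibroblast libraries (log2 fold change -5.52 ± 0.40, adjusted p = 8.0e-07 by edgeR). Slc2a1, the main glucose importer gene, stood at 20.6, 25.1 and 24.4 CPM in the iOB libraries, against 115, 91.9 and 97.9 CPM in the fibroblast libraries (log2 fold change -2.12 ± 0.25, adjusted p = 3.0e-05 by edgeR). Pdk1, a kinase that keeps pyruvate out of mitochondria, stood at 16, 20.9 and 16.5 CPM in the iOB libraries, against 115, 102 and 101 CPM in the fibroblast libraries (log2 fold change -2.56 ± 0.21). The hexokinase genes Hk1 and Hk2 were not called, at log2 fold changes of -0.30 ± 0.15 and -0.42 ± 0.26 (adjusted p = 0.11 and 0.21 by edgeR). The 5 higher members were Hk3 (log2 fold change 5.97 ± 0.56), Pfkfb4 (2.09 ± 0.15), Pdk4 (1.73 ± 0.18), Ldhd and Ldhb (0.49 ± 0.11). Hk3, a hexokinase of myeloid cells, had 7.86, 16.7 and 15.7 CPM in the iOB libraries, against 0.188, 0.283 and 0.166 CPM in the fibroblast libraries. It was lowest in iOB replicate 1, as the macrophage markers were and as were 1122 of the 3055 higher genes of all kinds. Outside the 5 classes, the adenylate kinase gene Ak4 stood at 1.36, 1.26 and 1.47 CPM in the iOB libraries, against 51.3, 41.4 and 45.4 CPM in the fibroblast libraries (log2 fold change -5.07 ± 0.30), and Bnip3, a mitophagy receptor gene, stood at 25.4, 27.8 and 26.2 CPM in the iOB libraries, against 232, 187 and 211 CPM in the fibroblast libraries (log2 fold change -2.99 ± 0.34, edgeR adjusted p = 1.9e-07 for Ak4 and 2.4e-05 for Bnip3). Both are known targets of hypoxia-inducible factors, as are Pgk1, Ldha, Slc2a1, Slc16a3 and Pdk1.

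**Figure D4:**
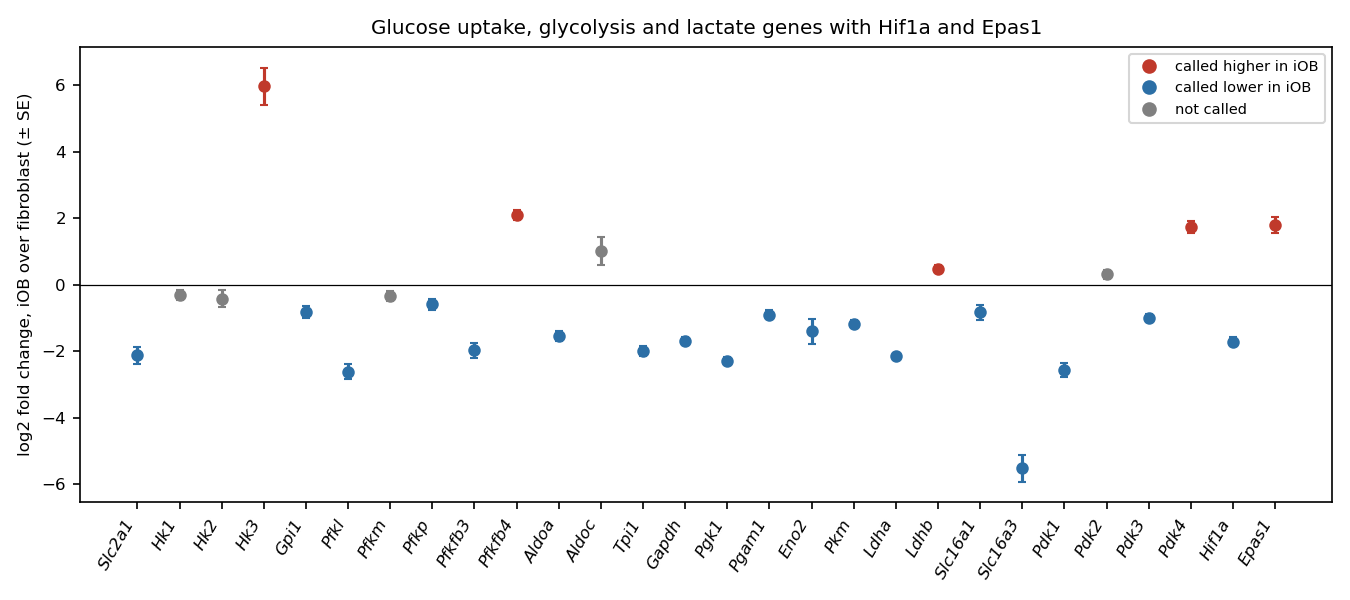
Log2 fold change of iOB over fibroblast (points, with SE bars) for glucose uptake, glycolysis and lactate genes in pathway order, with Hif1a and Epas1 at the right, coloured by whether the gene was called at an adjusted p below 0.05. Slc16a3 lies lowest at -5.52, Pfkl, Pdk1, Pgk1 and Ldha lie between -2.61 and -2.15, and Hk3 lies highest at 5.97.

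Because these genes moved together, their promoters are shown, from RefSeq's annotation of GRCm38.p6, a different build from the mm9 named for the deposited files. Each line gives the 250 bases before the annotated transcription start on the plus strand, 5′ to 3′, with every match to ACGTG, the core of the hypoxia response element, or to its reverse complement in capitals. The motif was chosen after the values had been seen.
Ldha (chr7:46845554-46845803): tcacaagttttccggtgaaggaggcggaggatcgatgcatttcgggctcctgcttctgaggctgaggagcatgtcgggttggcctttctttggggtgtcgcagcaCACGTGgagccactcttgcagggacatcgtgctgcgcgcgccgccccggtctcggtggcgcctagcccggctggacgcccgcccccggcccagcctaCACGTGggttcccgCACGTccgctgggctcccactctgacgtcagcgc
Pgk1 (chrX:106186850-106187099): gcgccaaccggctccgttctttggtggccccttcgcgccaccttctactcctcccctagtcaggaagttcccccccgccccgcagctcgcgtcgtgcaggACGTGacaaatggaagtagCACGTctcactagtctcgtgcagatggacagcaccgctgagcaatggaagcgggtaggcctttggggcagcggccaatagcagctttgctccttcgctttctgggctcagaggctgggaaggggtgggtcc
Slc16a3 (chr11:120948817-120949066): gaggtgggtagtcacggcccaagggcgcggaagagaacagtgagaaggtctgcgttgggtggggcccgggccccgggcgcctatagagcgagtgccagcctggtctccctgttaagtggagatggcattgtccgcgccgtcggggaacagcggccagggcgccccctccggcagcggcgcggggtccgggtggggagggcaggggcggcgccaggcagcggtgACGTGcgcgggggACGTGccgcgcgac
Pdk1 (chr2:71872974-71873223): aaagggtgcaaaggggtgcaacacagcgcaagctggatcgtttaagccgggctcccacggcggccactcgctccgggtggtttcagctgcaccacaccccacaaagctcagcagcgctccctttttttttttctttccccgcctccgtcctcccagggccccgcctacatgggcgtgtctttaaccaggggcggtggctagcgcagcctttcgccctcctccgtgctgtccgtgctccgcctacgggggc
The Ldha window held 5 matches counted on both strands, with 2 overlapping pairs that share a palindrome, the Pgk1 and Slc16a3 windows held 2 each, and the Pdk1 window held none. Ldha and Pdk1 each have a second annotated start, whose windows held none either. The glycolysis list's 15 lower genes had 21 windows of 250 bases before to 50 bases after a start, and 10 of these (47.6%) held the motif. Over all 32851 RefSeq windows 6447 (19.6%) held it. Counted by gene, 8 of the 15 (53.3%) had the motif in a window, and 3073 of the 10629 tested genes with a window (28.9%) had it. Of the genes at least 2-fold lower, 152 of 555 with a window (27.4%) had it. Windows matched 79.1% of tested genes, under the 80% needed to compare gene sets. The shares were therefore not tested against each other, and nothing is concluded from them. The 15 glycolysis genes had been chosen for their decrease and the motif for these genes, so the shares are a description and test nothing. A match describes the letters of a window and is neither a binding site nor a cause of the change.

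Serine, glycine, one-carbon and proline enzymes had 15 of 32 members lower (46.9%) and 2 higher. The lower ones included the serine synthesis genes Phgdh and Psat1, the one-carbon genes Shmt2, Mthfd1l, Mthfd2, Mthfd2l and Aldh1l2, the proline synthesis genes Aldh18a1 and Pycr1, and Asns, Ass1, Bcat1, Cth and Mat2b. Psat1, a serine synthesis aminotransferase gene, stood at 40.5, 40.9 and 47.1 CPM in the iOB libraries, against 143, 155 and 184 CPM in the fibroblast libraries (log2 fold change -1.91 ± 0.16, adjusted p = 2.2e-06 by edgeR). Cth, the cysteine-forming cystathionine lyase gene, stood at 1.81, 1.49 and 1.8 CPM in the iOB libraries, against 9.42, 9.35 and 10.9 CPM in the fibroblast libraries (log2 fold change -2.54 ± 0.24, adjusted p = 5.7e-06 by edgeR). The higher pair was Aldh1l1 (log2 fold change 1.51 ± 0.23), the cytosolic relative of Aldh1l2, and Prodh (1.68 ± 0.52), which breaks proline down. The call for Prodh was lost without iOB replicate 3 or fibroblast replicate 2 (adjusted p 0.0068 to 0.11 over all alternatives).

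The tricarboxylic acid cycle list had 7 of 36 members higher (19.4%) and 5 lower (13.9%). The higher count was 11 in the fit of 6 libraries, and the lower count ranged from 2 to 9 over the alternatives. No member was called at least 2-fold higher, and 1 was called at least 2-fold lower. Ogdh, of the 2-oxoglutarate dehydrogenase complex, rose by 0.64 ± 0.10 log2 units and the malic enzyme gene Me1 by 0.70 ± 0.13, while Got2 and Acly were lower, at -0.62 ± 0.11 and -0.50 ± 0.11. Fatty acid oxidation genes had 5 of 48 higher (3 without iOB replicate 2, 11 in the fit of 6 libraries) and 8 lower. Mitochondrial carriers had 9 of 43 higher (20.9%, or 5 without iOB replicate 3 or fibroblast replicate 1) and 5 lower (11.6%), against 22.7% and 20.6% of all tested genes. The pentose phosphate enzyme gene Rpia rose by 1.78 ± 0.17 log2 units.

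Lipid genes moved unevenly. Of 55 fatty acid synthesis, storage and lipolysis genes 21 were higher and 9 lower, and of 26 cholesterol genes 10 were higher (17 in the fit of 6 libraries) and 2 lower. Mgll, the monoacylglycerol lipase gene, stood at 217, 157 and 178 CPM in the iOB libraries, against 27.1, 30.2 and 26.7 CPM in the fibroblast libraries (log2 fold change 2.72 ± 0.14, adjusted p = 7.5e-08 by edgeR). Cd36, a fatty acid carrier and scavenger receptor gene shared by macrophages, fat cells and osteoblasts, stood at 76.8, 89.7 and 115 CPM in the iOB libraries, against 1.41, 1.27 and 0.581 CPM in the fibroblast libraries (log2 fold change 6.46 ± 0.36, adjusted p = 1.4e-07 by edgeR). The cholesterol synthesis gene Hsd17b7 rose by 2.15 ± 0.23 log2 units, and Insig1, the sterol sensor gene, by 1.17 ± 0.12. Alox5 and Alox5ap, which make leukotrienes in myeloid cells, rose by 6.24 ± 0.42 log2 units and 5.65 ± 0.35, and their list of eicosanoid, retinoid and steroid enzymes had 24 of 72 higher and 8 lower, or 4 to 5 lower in DESeq2's test and without iOB replicate 2 or 3 or fibroblast replicate 2 or 3. Cyp26a1, which breaks down retinoic acid, had 15.9, 12.3 and 18.2 CPM in the iOB libraries, against 0, 0 and 0.166 CPM in the fibroblast libraries (log2 fold change 7.58 ± 0.53, or 10.11 without fibroblast replicate 3).

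The creatine, phosphate, polyamine and NAD list had 28 of 56 members higher (50%) and 4 lower, or 2 lower without fibroblast replicate 3 and 7 in the fit of 6 libraries. Alpl, the alkaline phosphatase that frees phosphate for mineral, stood at 1061, 759 and 873 CPM in the iOB libraries, against 35.3, 38.7 and 34.5 CPM in the fibroblast libraries (log2 fold change 4.63 ± 0.20). Smpd3, a sphingomyelinase gene needed for bone mineralization in mice, stood at 85.6, 58.6 and 75.9 CPM in the iOB libraries, against 4.71, 3.4 and 3.65 CPM in the fibroblast libraries (log2 fold change 4.21 ± 0.27). For both genes every iOB library lay above every fibroblast library, and 63% of tested genes had groups that did not overlap. Nt5e (CD73), which makes extracellular adenosine from AMP, stood at 293, 216 and 241 CPM in the iOB libraries, against 15.3, 13 and 17.2 CPM in the fibroblast libraries (log2 fold change 4.03 ± 0.24, adjusted p = 2.0e-07 by edgeR). Its list of purine and pyrimidine genes had 6 of 35 higher (17.1%) and 10 lower (28.6%), against 22.7% and 20.6% of all genes, with the DNA precursor gene Dut among the lower ones at a log2 difference of -1.51 ± 0.22. The metallothionein genes Mt1 and Mt2 were lower, at -1.69 ± 0.16 and -2.38 ± 0.19, and the glutathione transferase gene Gsta3 rose by 5.25 ± 0.45 log2 units. Glycosaminoglycan enzymes had 23 of 69 higher and 6 lower, with the sulfatase gene Arsb up by 1.39 ± 0.09 and the chondroitin synthesis gene Csgalnact1 down, at a log2 fold change of -1.09 ± 0.11.

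Outside the 5 classes the 5 most raised abundant genes were Bglap, Bglap2, Ngef, Ibsp and Siglec1. They comprise matrix genes of bone, a signalling gene and the sialic acid receptor gene described with the innate receptors. Bglap and Bglap2, the osteocalcin genes, had 1041, 889 and 1118 CPM and 426, 353 and 441 CPM in the iOB libraries, against 0.754, 1.27 and 3.82 CPM and 0.471, 1.13 and 1.49 CPM in the fibroblast libraries, with log2 fold changes of 8.93 ± 0.39 (10.05 without fibroblast replicate 3) and 8.59 ± 0.27. These near-identical genes may share reads. Ibsp, the bone sialoprotein gene, had 954, 1109.7 and 1195 CPM in the iOB libraries, against 1.88, 2.12 and 9.21 CPM in the fibroblast libraries (log2 fold change 7.85 ± 0.45, or 9.12 without fibroblast replicate 3). Ngef, an ephrin-linked exchange factor gene best known from brain, stood at 209.9, 115 and 131 CPM in the iOB libraries, against 0.942, 0.425 and 0.498 CPM in the fibroblast libraries (log2 fold change 7.86 ± 0.36, adjusted p = 4.5e-08 by edgeR), and was highest in iOB replicate 1. Cdsn, the corneodesmosin gene of skin keratinocytes, fell by 3.01 ± 0.25 log2 units.

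For reporter-positive cells sorted from iOB, the authors' deposited table gives log2 fold changes over fibroblasts, from another fit. The samples list no other RNA libraries of fibroblasts, so both sources share the fibroblast control and are not independent. Sizes are set side by side and not compared by a test, and a shared control can by itself make signs alike. For the 17 macrophage markers the log2 fold changes were 3.00 to 7.70 in unsorted iOB, and the authors' deposited table lists 2.18 to 4.72 for the sorted cells. For the 11 osteoblast markers they were 0.65 to 8.93 in unsorted iOB, and the authors' deposited table lists 3.44 to 10.94 for sorted cells. In both sources every marker of both lists lay above its fibroblast level. Slc13a5 had a log2 fold change of 8.14 ± 0.36 in unsorted iOB, beside 10.23 for sorted cells in the authors' deposited table. Lifr and Il6st had log2 fold changes of 3.68 ± 0.20 and -1.60 ± 0.15 in unsorted iOB, beside 4.80 and -2.76 in the authors' deposited table. The sign was the same in both sources, which share their fibroblasts, for each of these 3 genes. Il1rl1 and Slc16a3 had log2 fold changes of -2.68 ± 0.25 and -5.52 ± 0.40 in unsorted iOB, beside -5.33 and -4.94 in the authors' deposited table. Igfbp2 and Marco had log2 fold changes of 4.40 ± 0.24 and 9.65 ± 0.44 in unsorted iOB, beside 1.88 and 5.78 in the authors' deposited table. Spp1 had a log2 fold change of -2.21 ± 0.17 in unsorted iOB, beside 0.47 in the authors' deposited table.

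**Figure D5:**
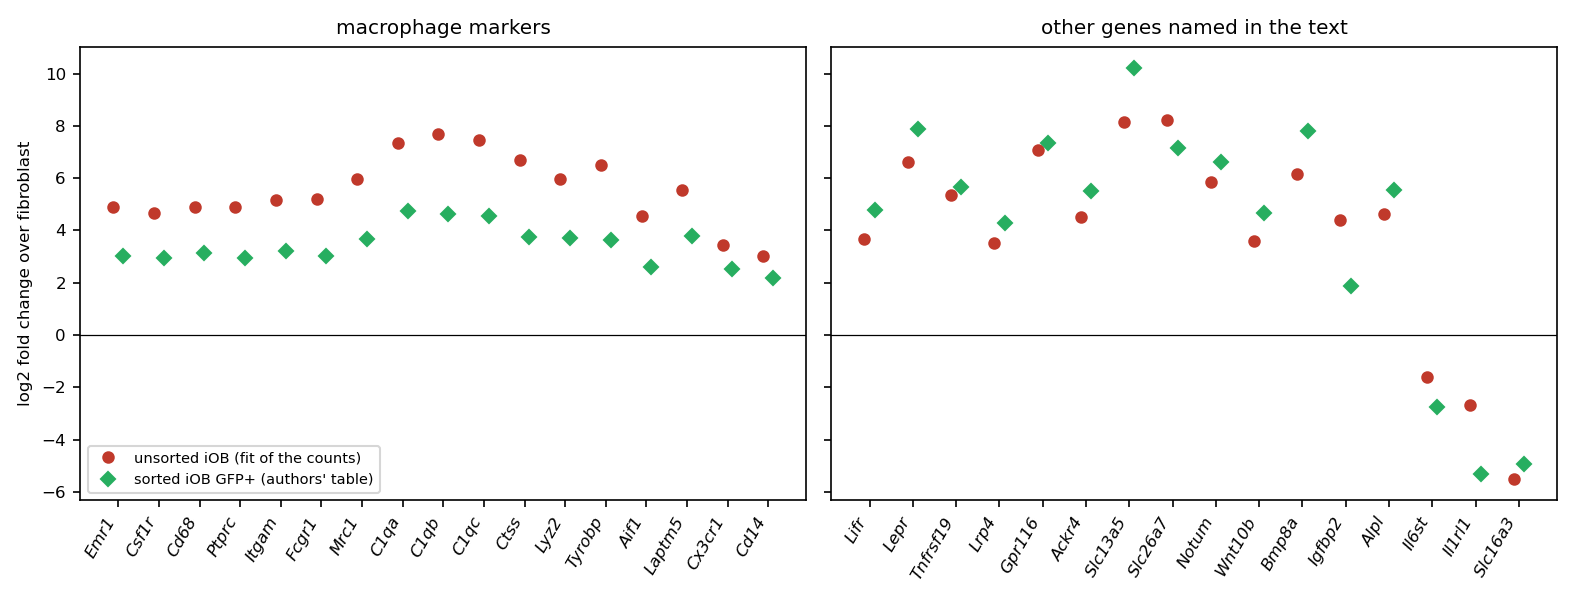
Log2 fold change over fibroblast for the 17 macrophage markers (left) and for 16 other genes named in the text (right), from the fit of the counts for unsorted iOB (circles) and from the authors' deposited table for sorted iOB GFP+ cells (diamonds). The macrophage markers span 3.00 to 7.70 in unsorted iOB and 2.18 to 4.72 in sorted cells, and Slc13a5 stands at 8.14 in unsorted iOB and 10.23 in sorted cells.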

How the data were processed

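Poly-A RNA was purified and sequenced, per the labels' protocols, and mm9, R 3.2.2, STAR 2.4.2a, DESeq2 and Bowtie2 are named, without their roles, in the submitters' processing notes. The authors deposited whole-number counts per gene symbol. The counter, annotation and strand setting are not given in the sources used here, so reads of a gene and its antisense partner cannot be told apart. The OB columns were matched to the calvarial-OB titles; 0 sample columns were left without a sample. The authors' deposited table for sorted cells gives log2 fold changes, whose moderation is not stated. Per the file headers, it also holds p-values, raw and adjusted, and a standard error entered here as a score; neither is printed. The authors' other comparison table and their methylation table were not used. The members and lists were chosen with earlier results of these data known.

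The 9 iOB, fibroblast and calvarial-OB libraries were fitted together in R 4.3.3 with edgeR 4.0.16's quasi-likelihood test (limma 3.58.1, TMM scaling, filterByExpr, group as the only term), and the contrast was iOB minus fibroblast. A gene was called at an adjusted p (Benjamini-Hochberg, over all 13438 tested genes) below 0.05. The third group only adds to the estimate of the spread (biological coefficient of variation 14.8%). CPM are on TMM-scaled library sizes, and the SE is the absolute log2 fold change over the square root of F. With a group at 0, folds are lower bounds against 3 counts over the group and cover counting error only. DESeq2 1.42.0, other scalings, no filter, the 6 libraries alone, no Rn45s, a replicate block and leaving out each library were the alternatives. The fit was tested on simulated data. Named genes were, per class, the 3 most raised and 3 most lowered called genes with a mean of at least 5 CPM and groups that do not overlap; 5 each way outside the classes at 20 CPM or more; the 2 of smallest adjusted p per list and direction, described in part; and Runx2, Sp7, Dlx5 and Atf4. Members of a list are otherwise named where all or all but 1 of its called members are, or as not called. A few genes that this rule names are not reported here. Figures and lists were made with Python 3.11.15, numpy 2.4.6, pandas 2.3.3 and matplotlib 3.10.9. A planned comparison of Runx, homeobox and AP-1 motifs between gene sets was void, because RefSeq promoter windows matched 79.1% of tested genes, under the 80% needed.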

Additional observations from a re-analysis of the deposited data

How the results depend on the processing

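Over the alternatives, no count of called genes over all genes or over a class moved by more than 1.5 times, and no called gene of the classes changed direction. Genes higher in iOB numbered 2661 to 2845 and genes lower 1964 to 2280 when each library was left out in turn, against 3055 and 2765, and 3685 and 3272 in the fit of 6 libraries. With the replicate number as a block there were 3004 higher and 2610 lower genes, of which 2944 and 2547 were also called without it. The labels do not say whether the replicate numbers pair the samples. Same-numbered libraries correlated in their deviations at -0.08, 0.01 and -0.02, and not every library correlated best with its own number. So few libraries cannot decide whether same-numbered ones share a source. Of 202 named genes 195 kept their side of the threshold in every alternative; the 7 others were Hoxb2, Hoxd8, Nnt, Prodh, Scarb1, Sox13 and Tnfrsf1a. Of all 1205 called class members and named genes, 955 did. Low counts limit folds of genes near 0 in fibroblasts, and the cause of the other shifts was not tested.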
